A study of Mus musculus with 10 samples.

Results

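Pomc and 6 genes for enzymes that process its product were followed by name through single-cell transcriptomes of the adult mouse pituitary. The 7 genes were Pomc (pro-opiomelanocortin), the prohormone convertases Pcsk1 (PC1/3) and Pcsk2 (PC2), carboxypeptidase E (Cpe), the peptide-amidating enzyme Pam, and the constitutive-pathway enzymes Furin and Cpd (carboxypeptidase D). All 7 were found in each of the 10 count tables, which together listed 44288 gene symbols. The count tables pair no cell with a type, so cells were assigned to classes by unique molecular identifiers (UMIs, 1 per captured RNA molecule) of marker genes, none of which is among the 7.

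The cells came from whole pituitaries of CD1 mice, dissociated with an enzyme-free buffer. On the 10X Genomics platform, 1 library was made from 8-week-old WT females and 1 from 8-week-old WT males. By Drop-seq there were 2 libraries of 8-week-old WT females, 2 of 8-week-old WT males, 1 of 13-week-old WT virgin females, 2 of 13-week-old WT lactating females and 1 of 8-week-old females carrying the mt/hGRF transgene, in which a metallothionein promoter drives human growth hormone-releasing factor. Per the study's methods, each 8-week Drop-seq library pooled 2 mice, the transgenic library also came from 2 mice and the virgin library from 1 mouse. The library was therefore the unit of every test, and the virgin and mt/hGRF groups have no replicate of their own.

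After the study's cell filters, 23432 cells remained, 978 to 5256 per library, with 960289 to 5080590 UMIs per library and a median of 534 to 1246 UMIs per cell. Ribosomal protein genes took 18.4% and 30.8% of UMIs in the female and male 10X Genomics libraries but 0.773% to 2.22% in the Drop-seq libraries, so levels are compared within a library or within a platform. The 10X Genomics libraries shared 6 cell barcodes, and pairs of Drop-seq libraries shared 0 or 1. Each level below is the number of UMIs of a gene per 10000 UMIs of all genes, summed over the cells of a class in a library. For the further processing and transcription factor genes, and for resemblance between genes, it is per 10000 UMIs of the 24767 symbols found on both platforms. The share of UMIs contributed by free RNA, estimated from Gh, Prl and Pomc in macrophages, was 5.85% to 29.3% per library.

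Pomc encodes a single precursor that is cut into different hormones in different cells. PC1/3 releases adrenocorticotropic hormone (ACTH) in corticotropes of the anterior lobe, and PC2 cuts ACTH further toward alpha-melanocyte-stimulating hormone in melanotropes of the intermediate lobe. Cpe then trims the basic residues that the convertases leave behind, and Pam amidates the C-terminus of peptides such as alpha-melanocyte-stimulating hormone. Furin and Cpd act earlier, in the trans-Golgi network of most cells.

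Promoters of the hormone gene and of both convertases are shown because these 3 genes define the contrast described below. The sequences are from GRCm38.p6, plus strand, 5′ to 3′, and for Pomc and Pcsk2 are the 250 bases before the RefSeq start. Pcsk1 has 219 bases, because its window was cut at the start of a second gene annotation that begins further upstream. Pomc is at chr12:3954695-3954944, Pcsk2 at chr2:143545883-143546132 and Pcsk1 at chr13:75089607-75089825. Capitals mark an E-box (CANNTG) or a TATA box (TATAAA) in Pomc and Pcsk2, and the core of a cAMP response element (TGACGT) in Pcsk1, each searched on both strands.
Pomc: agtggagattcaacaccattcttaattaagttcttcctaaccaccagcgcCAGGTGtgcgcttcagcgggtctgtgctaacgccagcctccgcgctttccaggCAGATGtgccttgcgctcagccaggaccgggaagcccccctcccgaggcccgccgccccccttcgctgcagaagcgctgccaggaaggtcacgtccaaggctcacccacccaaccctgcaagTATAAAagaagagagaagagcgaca
Pcsk2: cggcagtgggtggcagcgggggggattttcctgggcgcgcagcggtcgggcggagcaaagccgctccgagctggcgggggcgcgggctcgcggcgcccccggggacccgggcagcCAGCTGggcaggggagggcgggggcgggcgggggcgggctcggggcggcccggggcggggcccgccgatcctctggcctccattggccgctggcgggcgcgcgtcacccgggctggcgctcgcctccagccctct
Pcsk1: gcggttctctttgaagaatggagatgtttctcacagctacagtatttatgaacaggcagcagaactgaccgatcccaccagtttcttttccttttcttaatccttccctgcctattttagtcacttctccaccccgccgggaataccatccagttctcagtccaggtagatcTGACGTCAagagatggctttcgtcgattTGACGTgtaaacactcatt
Pomc held 2 E-boxes and a TATA box, Pcsk2 held 1 E-box and no TATAAA, and Pcsk1 held 3 matches to TGACGT, of which 2 overlap on opposite strands. Of 32851 promoters of the RefSeq table, searched over the 250 bases before the start, 66.2% held CANNTG, 12.4% TATAAA and 6.47% TGACGT. Of the 7 genes, 6 had an entry in that table. A match is a description of these letters and not of binding.

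Melanotropes were gated by at least 2 UMIs of Pax7, Oacyl, Esm1 and Rbfox3 together. Corticotropes were gated by a UMI of the receptors Crhr1 or Avpr1b, or at least 2 UMIs of the transcription factor Tbx19, with no UMI of the melanotrope markers. Cells with a UMI of Pou1f1 (the transcription factor of the somatotrope, lactotrope and thyrotrope lineages) and none of the melanotrope markers or of the corticotrope receptors served as the hormone-producing comparison. The gates gave 1323 melanotropes (40 to 349 per library), 185 corticotropes (6 to 39) and 5860 Pou1f1-lineage cells (175 to 1222), and 1343 cells that passed more than 1 gate were set aside. For setting cells aside, a UMI of Pou1f1 counted as a gate whatever the other markers showed, so gated melanotropes and corticotropes held none. On 10X Genomics the cells set aside had medians of 3685 and 3748 UMIs (female, then male), against 2158.5 and 1578 in melanotropes. The 6 corticotropes of 8-week male Drop-seq replicate 1 were too few for a test, which left 9 libraries wherever corticotropes were compared.

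Levels of the gating markers describe the classes and are no test of them. In melanotropes Crhr1 was at most 0.182 and Avpr1b at most 0.266 UMIs per 10000, against 1.75 to 11.5 and 0.298 to 6.73 in corticotropes, whose gate used both. Tbx19, which both lineages express and which the corticotrope gate also used, was 0.354 to 2.56 in melanotropes and 1.40 to 10.3 in corticotropes. Pituitary hormone RNA of other lineages was present in both classes, with Gh at 69.0 to 633 UMIs per 10000 in melanotropes and 43.3 to 403 in corticotropes. Levels are given as counted, and the comparisons between classes were repeated with free RNA subtracted. The profile subtracted was that of all kept cells of the library, scaled by the estimated share, and not that of barcodes of at most 100 UMIs. Values with free RNA subtracted are therefore approximate.

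Pomc was highest in melanotropes and next in corticotropes, which exceeded gonadotropes in 9 of 9 libraries. In melanotropes Pomc ranged from 956 (lactating replicate 1) through a median of 1455 to 2599 UMIs per 10000 (8-week female Drop-seq replicate 2). In corticotropes it was 597 and 383 in the 10X Genomics libraries (female, then male), and 430 to 1526 in the 7 Drop-seq libraries, lowest in 8-week female replicate 2 and highest in lactating replicate 2. Melanotropes exceeded corticotropes in 9 of 9 libraries, by a ratio of 1.03 to 6.04 with a median of 2.14, although the ranges overlapped.

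**Figure D1:**
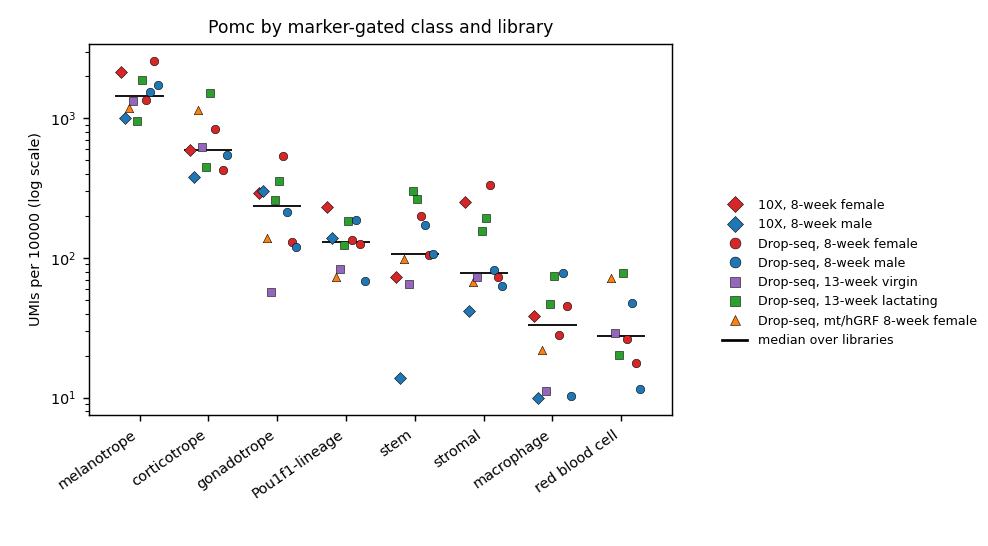
Pomc in UMIs per 10000 UMIs (log axis) in each marker-gated class with at least 10 cells, 1 point per library, coloured by group, with a bar at the median over libraries. Melanotropes lay at 956 to 2599 and corticotropes at 383 to 1526, and all Pou1f1-lineage points lay at or below 233.

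Pou1f1-lineage cells had 68.4 to 233 UMIs of Pomc per 10000, below the lowest corticotrope and melanotrope library. Gonadotropes ranged from 57.0 to 539, and exceeded Pou1f1-lineage cells in 9 of 10 libraries. Macrophages, which do not make the hormone, still had 9.92 to 78.5, and 85.6% ± 20.4 (SD, n = 2) of them on 10X Genomics and 78.1% ± 17.1 (SD, n = 8) by Drop-seq held a Pomc UMI, at median depths of 1381.5 to 1620 and 666.5 to 1116.5 UMIs per cell. A Pomc UMI in a single cell was therefore not read as expression. Neighbours in the order of Pomc levels by Drop-seq below corticotropes (gonadotropes, stem cells, Pou1f1-lineage cells and stromal cells) all had overlapping ranges.

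The tests used UMI sums per library and class with the library as a block, in edgeR's quasi-likelihood model with trimmed mean of M-values (TMM) scaling and Benjamini-Hochberg adjustment over all genes tested. TMM and plain library totals gave different centres. The median log2 fold change of all genes moved from 0.19 to -0.71 for melanotropes against corticotropes, from -0.04 to -0.23 for melanotropes against Pou1f1-lineage cells, and from -0.38 to 0.35 for corticotropes against Pou1f1-lineage cells. Genes called higher and lower were 624 and 360, 613 and 677, and 569 and 1507 in these comparisons by TMM, against 120 and 948, 455 and 1179, and 1392 and 421 by library totals. Both scalings are therefore given for each enzyme.

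Between melanotropes and corticotropes, 5 of the 7 genes passed the filter on low counts and 3 were called, all higher in melanotropes, where 29.1% of all 2142 genes tested were called higher and 45.9% were called in either direction. The 3 were Pcsk2, Pomc and Pam, and the share is read against that high background. With library totals Pcsk2 and Pomc were called higher and Cpe lower, where 5.6% of all genes were called higher and 44.3% lower. Pomc was higher in melanotropes by 2.08 on the log2 scale (SE 0.27, edgeR adjusted p = 1.91e-09), a 4.24-fold difference, and by 1.16 with library totals (adjusted p = 3.91e-05, edgeR). Against Pou1f1-lineage cells Pomc was higher by 3.73 in melanotropes (SE 0.20, edgeR adjusted p = 1.48e-14) and by 1.70 in corticotropes (SE 0.23, edgeR adjusted p = 2.82e-11). With free RNA subtracted these differences were 2.35, 4.42 and 2.14.

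**Figure D2:**
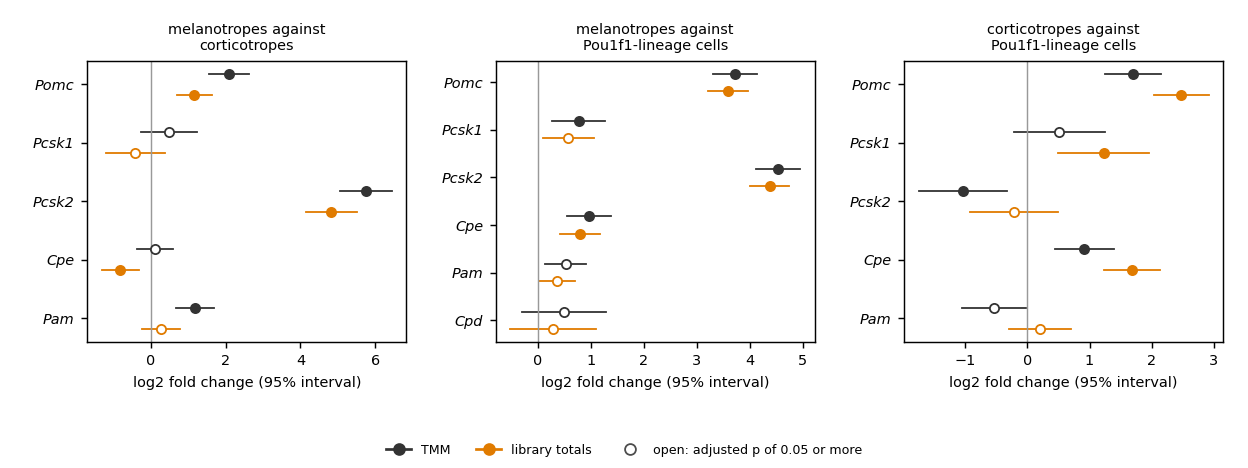
Log2 fold changes of the genes that passed the low-count filter in the 3 comparisons between classes, with 95% intervals, by TMM (black) and by library totals (orange), filled where the edgeR adjusted p is below 0.05. Pomc and Pcsk2 lay above 0 in melanotropes against both other classes under both scalings, whereas Cpe crossed from 0.11 to -0.82 against corticotropes.

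Pcsk2 gave the widest gap between both Pomc classes. PC2 is the convertase that takes ACTH apart. In melanotropes Pcsk2 was 69.8 and 49.1 UMIs per 10000 in the 10X Genomics libraries (female, then male). By Drop-seq it was 14.0 in mt/hGRF, 13.0 in virgin, 20.4 and 20.6 in lactating, 15.6 and 30.9 in 8-week female, and 11.2 and 18.2 in 8-week male libraries. Within each platform every melanotrope library was above every corticotrope library. Melanotrope levels on 10X Genomics stood above all of those by Drop-seq, a gap that spans the platforms and is not read further.

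In corticotropes Pcsk2 was 2.32 and 6.85 UMIs per 10000 in the 10X Genomics libraries (female, then male). By Drop-seq it was 1.71 and 0.258 in lactating, 0.478 in 8-week female replicate 2 and 0.396 in 8-week male replicate 2, each from 1 to 3 UMIs. It was at 0 in the mt/hGRF, virgin and 8-week female replicate 1 libraries, where a count of 0 allows up to 2.02, 0.437 and 1.75. The 23 Pcsk2 UMIs of the 10X Genomics male corticotropes came from 2 of 21 cells.

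The melanotrope excess of Pcsk2 over corticotropes was 5.76 on the log2 scale (SE 0.35, edgeR adjusted p = 6.18e-23), a 54.0-fold difference with a 95% interval of 33.5 to 87.1, and 4.82 with library totals (edgeR adjusted p = 2.92e-20). By Drop-seq alone it was 6.57 (edgeR adjusted p = 4.03e-29). Leaving out 1 library gave 5.56 to 6.50, the highest without the 10X Genomics male. It was 4.85 with loose gates, 7.62 with strict gates and 6.89 with free RNA subtracted. The observed ratio within a library was 7.17 to 79.9 in the 6 libraries with a corticotrope UMI. Both corticotrope and melanotrope sums contain counting error, and 35 corticotrope UMIs in 9 libraries stand behind the lower side.

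Per cell, 94.2% ± 1.18 (SD, n = 2) of 10X Genomics melanotropes and 62.8% ± 13.6 (SD, n = 8) of Drop-seq melanotropes held a Pcsk2 UMI. After thinning each cell to 300 UMIs the shares were 86.7% and 33.1%, with no cell of the class left out. In corticotropes the share was 18.4% ± 12.5 (SD, n = 2) and 4.73% ± 5.84 (SD, n = 7), next to 20.8% ± 2.14 (SD, n = 2) and 7.47% ± 2.76 (SD, n = 8) in Pou1f1-lineage cells. Macrophages had 5.92% ± 0.206 (SD, n = 2) and 3.31% ± 2.66 (SD, n = 8), so the Drop-seq corticotrope share lay within 1 SD of this background.

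Against Pou1f1-lineage cells, 4 of the 6 genes that passed the filter were called, all higher in melanotropes, beside 8.29% of 7397 genes called higher and 17.4% called in either direction. By library totals 3 were called higher, beside 455 of the 7397 genes. Pcsk2 was higher by 4.54 (SE 0.20, edgeR adjusted p = 3.4e-16). In corticotropes against Pou1f1-lineage cells, 2 of 5 genes were called higher, beside 10.4% of 5488 genes, and 3 were called in either direction, beside 37.8%. With library totals 3 were called higher and 0 lower, beside 1392 and 421 of the 5488 genes. Pcsk2 was the gene called lower in corticotropes, where 27.5% of all genes were called lower (log2 fold change -1.04, SE 0.37, edgeR adjusted p = 0.0152). This difference was -2.10 by Drop-seq alone (edgeR adjusted p = 0.000762), -0.21 with library totals (adjusted p = 0.684) and -0.92 with free RNA subtracted (adjusted p = 0.116). The call was also lost under loose gates (-0.68, adjusted p = 0.0684), with at least 20 cells (-0.87, adjusted p = 0.072), without the virgin library (-0.76, adjusted p = 0.0916) and without lactating replicate 2 (-0.84, adjusted p = 0.0859), whereas it was -1.78 without the 10X Genomics male. The fold change was 2.40 higher on 10X Genomics than by Drop-seq, an interaction that did not pass the threshold (SE 0.80, edgeR adjusted p = 0.533).

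Gonadotropes were second to melanotropes for Pcsk2, at 5.62 and 6.44 UMIs per 10000 on 10X Genomics and 1.21 to 4.45 by Drop-seq. They exceeded Pou1f1-lineage cells (0.442 to 2.25) in 10 of 10 libraries, by a median ratio of 2.89. The gonadotrope and corticotrope ranges overlapped on the 10X Genomics platform, where each was higher in 1 of the 2 libraries.

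**Figure D3:**
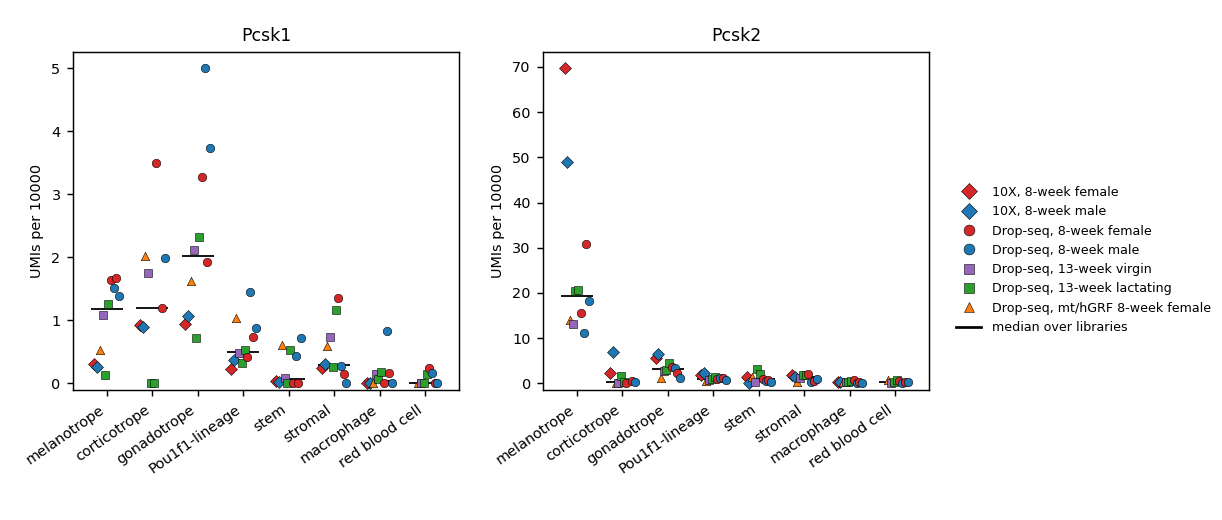
Pcsk1 (left) and Pcsk2 (right) in UMIs per 10000 UMIs by class, 1 point per library, coloured by group, with a bar at the median, on separate linear axes. Pcsk2 lay at 11.2 to 69.8 in melanotropes and at or below 6.85 elsewhere, whereas Pcsk1 was below 5.02 in all classes and highest in gonadotropes.

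Pcsk1, the convertase that yields ACTH, was sparse in both Pomc classes. Melanotropes had 0.310 and 0.262 UMIs per 10000 on 10X Genomics and 0.136 to 1.68 by Drop-seq, lowest in lactating replicate 1. Corticotropes had 0.930 and 0.893 on 10X Genomics, 3.50 in 8-week female replicate 1, 2.02 in mt/hGRF, 1.98 in 8-week male replicate 2, 1.75 in virgin, 1.20 in 8-week female replicate 2 and 0 in both lactating libraries, where a count of 0 allows up to 1.71 and 0.775. Corticotropes were higher in 6 of 9 libraries and melanotropes in 3, and the ranges overlapped.

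The log2 fold change of Pcsk1 in melanotropes against corticotropes was 0.48 by TMM (SE 0.38, 95% interval -0.27 to 1.24, edgeR adjusted p = 0.301) and -0.42 with library totals (edgeR adjusted p = 0.397), so its direction depended on the scaling. Against Pou1f1-lineage cells Pcsk1 was higher in melanotropes by 0.77 (SE 0.24, edgeR adjusted p = 0.0252), a call lost with library totals (0.58, adjusted p = 0.0752), DESeq2 (0.71, adjusted p = 0.0858), loose gates (0.64), a melanotrope gate without Esm1 (0.71) or free RNA subtracted (0.81), and when virgin, lactating replicate 2, 8-week female replicate 1 or 2, or 8-week male replicate 2 was left out (0.62 to 0.73, adjusted p = 0.0638 to 0.115). In corticotropes the difference was 0.51 (SE 0.38, edgeR adjusted p = 0.285) and passed the threshold with library totals (1.23, edgeR adjusted p = 0.00546).

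Gonadotropes had the highest Pcsk1 on both platforms, at 0.936 and 1.07 UMIs per 10000 on 10X Genomics and 0.725 to 5.01 by Drop-seq. They exceeded Pou1f1-lineage cells (0.233 to 1.45) in 10 of 10 libraries, with a median ratio of 3.73, and corticotropes in 7 of 9. The gonadotrope and corticotrope ranges overlapped by Drop-seq. On 10X Genomics the levels of gonadotropes and corticotropes rest on 11 and 5 Pcsk1 UMIs, so their order there is not read further.

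The balance of both convertases was taken as the share of Pcsk2 in the sum of Pcsk1 and Pcsk2 UMIs. In melanotropes it was 90.5% to 99.6% in the 9 libraries, a mean of 95.5% ± 3.38 (SD, n = 9). In corticotropes it was 71.4% and 88.5% in the 10X Genomics libraries (female, then male), 100% in both lactating libraries, 28.6% and 16.7% in 8-week female and male replicate 2, and 0% in the mt/hGRF, virgin and 8-week female replicate 1 libraries. The corticotrope shares therefore spanned the full scale.

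These corticotrope shares rest on few UMIs, from 1 in lactating replicate 2 (exact 95% binomial interval 2.5% to 100%) to 26 in the 10X Genomics male (69.8% to 97.6%), of which 23 were the Pcsk2 UMIs of the 2 cells named above. Summed over libraries, corticotropes held 36 Pcsk1 and 35 Pcsk2 UMIs, and melanotropes 157 and 5165. The share was higher in melanotropes in 7 of 9 libraries, by 50.5 percentage points ± 42.1 (SD, n = 9; exact two-sided permutation test, p = 0.0156, where the smallest possible p is 0.00391). The difference was 59.3 points by Drop-seq alone (exact permutation p = 0.0625 with n = 7) and 44.8 to 57.5 points when 1 library at a time was left out.

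By the median over libraries, Cpe was highest in corticotropes on both platforms. It had 6.97 and 7.74 UMIs per 10000 in the corticotropes of the female, then of the male 10X Genomics library, and 2.69 to 8.74 by Drop-seq, lowest in mt/hGRF. Melanotropes had 1.51 to 7.47, and corticotropes were higher in 7 of 9 libraries. Pou1f1-lineage cells had 1.34 to 4.08. Outside the hormone-producing classes, stem cells had 0.349 and 1.05 on 10X Genomics and 2.23 to 7.95 by Drop-seq, above Pou1f1-lineage cells in 8 of 8 Drop-seq libraries and in 0 of 2 on 10X Genomics. Stromal cells had up to 6.42 and macrophages at most 0.656.

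Cpe exceeded the Pou1f1-lineage level by 0.96 in melanotropes (SE 0.20, edgeR adjusted p = 0.000813) and by 0.92 in corticotropes (SE 0.24, edgeR adjusted p = 0.00107) on the log2 scale, and by 0.80 and 1.68 with library totals (edgeR adjusted p = 0.00131 and 2.3e-11). Between melanotropes and corticotropes the difference was 0.11 by TMM (SE 0.25, 95% interval -0.39 to 0.60, edgeR adjusted p = 0.746) and -0.82 with library totals (edgeR adjusted p = 0.00447), so Cpe was lower in melanotropes under that scaling alone.

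Pam was 2.03 to 6.74 UMIs per 10000 in melanotropes (median 4.06), 1.19 to 5.50 in corticotropes and 1.75 to 5.04 in Pou1f1-lineage cells, and these ranges overlapped. Stromal cells, at 0.818 to 5.49, and stem cells, at 0.25 to 2.84, overlapped them too, and macrophages had at most 1.11. Pam was higher in melanotropes than corticotropes in 7 of 9 libraries, with a log2 difference of 1.18 (SE 0.25, edgeR adjusted p = 0.000103) by TMM that was not called with library totals (0.26, edgeR adjusted p = 0.415). Against Pou1f1-lineage cells Pam did not pass the threshold in melanotropes (0.52, SE 0.19, edgeR adjusted p = 0.055) or in corticotropes (-0.54, SE 0.26, edgeR adjusted p = 0.0965, and 0.21 with library totals). The melanotrope difference passed with RLE size factors (0.54, edgeR adjusted p = 0.0422), with Gh, Prl and Pomc left out of library totals (0.53, adjusted p = 0.0496), by Drop-seq alone (0.45, adjusted p = 0.0432), and without the 10X Genomics male (0.61, adjusted p = 0.00306) or 8-week male Drop-seq replicate 1 (0.66, adjusted p = 0.0125). The corticotrope difference passed with no filter on low counts (-0.76, edgeR adjusted p = 0.0496) and without 8-week female replicate 2 (-0.69, adjusted p = 0.049).

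Furin and Cpd followed another order. Cpd was highest in macrophages, at 0.283 to 1.39 UMIs per 10000, and exceeded Pou1f1-lineage cells (0 to 0.387) in 10 of 10 libraries. Stem cells, at 0.121 to 1.30, also exceeded Pou1f1-lineage cells in 10 of 10 libraries. Melanotropes had 0 to 0.546 and corticotropes 0 to 0.673, the latter from 4 UMIs in 185 cells.

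Furin was at most 0.921 UMIs per 10000 in any class and library, which was a macrophage sum of the 10X Genomics male. It was represented by 22 UMIs in 1323 melanotropes and 3 UMIs in 185 corticotropes, so few UMIs stand behind any difference between both classes. Neither Furin nor Cpd passed the low-count filter in melanotropes against corticotropes. Fitted with no filter, the log2 differences were 1.66 for Furin (95% interval -0.15 to 3.47, edgeR adjusted p = 0.305) and 1.45 for Cpd (0.09 to 2.82, edgeR adjusted p = 0.196), and neither was called. Cpd alone passed against Pou1f1-lineage cells (log2 fold change 0.49, SE 0.39, edgeR adjusted p = 0.453).

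**Figure D4:**
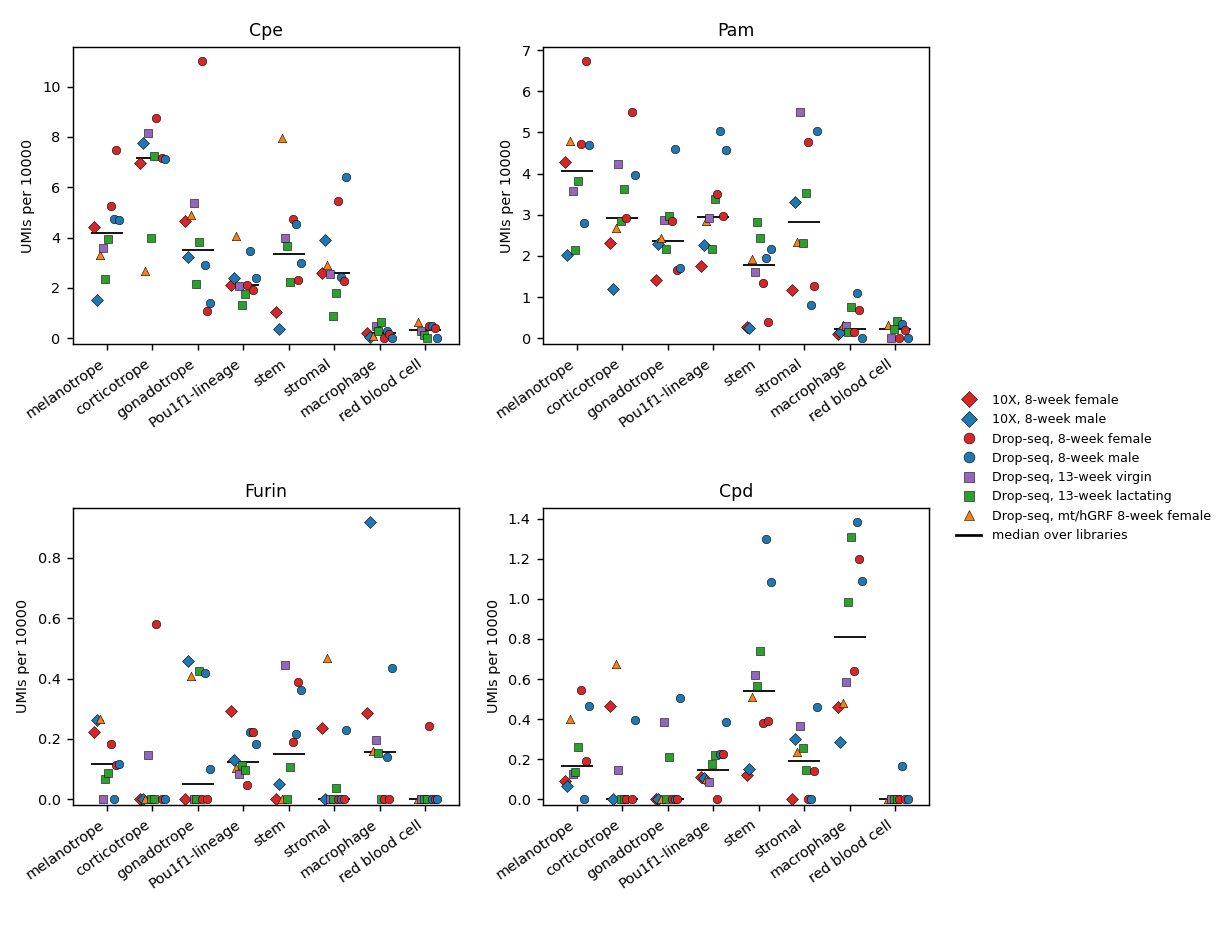
Cpe, Pam, Furin and Cpd in UMIs per 10000 UMIs by class, 1 point per library, coloured by group, with a bar at the median, on separate linear axes. Cpe and Pam lay at or below 0.656 and 1.11 in macrophages but reached 7.95 and 2.84 in stem cells and 6.42 and 5.49 in stromal cells, whereas Cpd was highest in macrophages at 0.283 to 1.39.

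Marker-gated melanotropes held, of the Pomc UMIs of all kept cells, 33.1% (female) and 18.5% (male) on 10X Genomics and 22.1% to 63.6% by Drop-seq, while making up 2.61% to 9.38% of cells. For Pcsk2 these shares were, in the same order, 54.3% and 33.1%, and 23.5% to 74.0%. Gated corticotropes held 0.874% to 6.55% of Pomc UMIs. Cells set aside for passing more than 1 gate held 25.3% and 33.8% of Pomc UMIs on 10X Genomics (female, then male), at 684 and 489.6 UMIs per 10000, and 4.14% to 23.0% by Drop-seq. Cells that met no gate held 16.0% to 45.0%, and which lineage either set belongs to was not tested.

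Among 28 further genes of precursor processing, 11 passed the filter in melanotropes against corticotropes, 0 were called higher and 2 lower (median log2 fold change -0.15, against 0.19 over all genes tested), beside 29.1% and 16.8% of all genes. With library totals 0 were called higher and 8 lower (median -1.08, against -0.71), beside 5.6% and 44.3% of all genes. The 2 were Pcsk1n, whose product proSAAS is an inhibitor of PC1/3, and Spcs1, a subunit of the signal peptidase. Pcsk1n was 1.70 to 6.96 UMIs per 10000 in melanotropes (median 2.52) and 10.3 to 30.8 in corticotropes (median 22.9), without overlap, with a log2 difference of -1.82 (edgeR adjusted p = 5.08e-10). Spcs1 was 0.317 to 1.39 and 2.12 to 5.17, also without overlap, at -1.29 (edgeR adjusted p = 0.000179). Both were also lower with library totals (-2.75 and -2.21).

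Among 14 genes for transcription factors and cofactors linked to Pomc, 9 passed, 4 were called higher in melanotropes and 2 lower (median 0.67, against 0.19 over all genes tested), beside the same 29.1% and 16.8%. With library totals 4 and 3 were called (median -0.24, against -0.71), beside 5.6% and 44.3%. Neurod1, a corticotrope factor of the bHLH class, whose members bind the letters CANNTG, was 0 to 0.142 UMIs per 10000 in melanotropes and 0 to 3.39 in corticotropes (log2 difference -4.35, edgeR adjusted p = 1.87e-07). The glucocorticoid receptor gene Nr3c1 was 0.0663 to 0.796 in melanotropes and 1.81 to 6.68 in corticotropes, without overlap (-3.10, edgeR adjusted p = 7.23e-12). Both lay lower in melanotropes under both scalings.

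Those called higher included the ETS factor Etv1 (3.68, edgeR adjusted p = 7.05e-14) and the orphan nuclear receptors Nr4a1 (1.84, edgeR adjusted p = 5.85e-05) and Nr4a2 (1.79, edgeR adjusted p = 6.36e-06). Etv1 had 1.64 to 14.3 UMIs per 10000 in melanotropes and 0 to 3.92 in corticotropes, and was higher in 9 of 9 libraries. Nr4a1 and Nr4a2 were higher in 8 and 7 of 9 libraries. These genes were called with library totals too, at 0.95 for Nr4a1 and 0.88 for Nr4a2.

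The genes whose levels most resembled each member were sought over 81 sums of 10 classes, as Pearson's r of log2 levels among 5447 genes; these sums share libraries and depth, so r is a description. For Pomc they included Cbarp (0.77) and Syt4 (0.76). For Pcsk2 they included Pcsk2os1 (0.75) and Pomc (0.67). Pcsk2os1 is an antisense gene named for Pcsk2. Per the study's methods the Drop-seq counts kept reads on the annotated strand, and the strand setting of the 10X Genomics counts is not given in the sources used here. Pcsk1 lay nearest Scg2 (0.73), Dner (0.71) and Scn3a (0.70), and its r with Pcsk2 was 0.34. Cpe lay nearest Scg5 (0.86), Ccnd2 (0.85) and Spint2 (0.82), and Pam nearest Maged1 (0.87), Nktr (0.86) and Scg2 (0.85).

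The study also compared sexes, lactation and the mt/hGRF transgene. In none of the 9 fits, over melanotropes, corticotropes and Pou1f1-lineage cells, was a member called by edgeR. In corticotropes only Pomc and Cpe passed the low-count filter by sex, and only Pomc, Cpe and Pam by lactation and by the transgene. Pcsk1 and Pcsk2 were therefore not tested by condition in corticotropes. All genes called were likewise few, at 0.167%, 0% and 0.212% by sex, 0.0192%, 0.27% and 0.0553% by lactation, and 0%, 0.135% and 0.267% by the transgene, in the order melanotropes, corticotropes and Pou1f1-lineage cells. With library totals the median log2 fold change of all genes moved from 0.03 to -0.19 and -0.17 by lactation in melanotropes and Pou1f1-lineage cells, from -0.12 and -0.06 to 0.10 and -0.25 by the transgene, and from -0.02 to 0.10 by sex in melanotropes. In the sex comparison of corticotropes 4 of 327 genes had an unadjusted p below 0.05 by edgeR, and DESeq2 called 1. In the transgene comparison of melanotropes 262 of 5208 did, and DESeq2 called 0.

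By sex, the 5 members tested in melanotropes were all lower in males, by -0.36 (Pcsk1) to -0.94 (Cpe), with edgeR adjusted p of 1 for each. Cpe in melanotropes was 4.42 and 1.51 UMIs per 10000 in the 10X Genomics libraries (female, then male), 5.28 and 4.74 in Drop-seq replicate 1, and 7.47 and 4.69 in replicate 2. Pam in the same order was 4.29 and 2.03, 4.73 and 2.80, and 6.74 and 4.69. Set against the female of the same platform and replicate number, the male was lower in 3 of 3 pairs for Pcsk1, Pcsk2, Cpe and Pam and in 2 of 3 for Pomc. For Pcsk1 these pairs rest on few UMIs, with 7 and 4 on 10X Genomics (female, then male) and 9 in Drop-seq female replicate 1. Replicate 2 had 44 and 24. Within Drop-seq the values of both sexes did not overlap for Pcsk1, Cpe and Pam, with 2 libraries each, and overlapped for Pomc and Pcsk2. The share of all genes with a uniform sign over the pairs, or with no overlap, was not computed. These counts therefore describe the members alone and are not read as a sex difference. The 95% intervals included 0, for example -1.99 to 0.12 for Cpe and -1.91 to 0.16 for Pam.

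In Pou1f1-lineage cells the sex differences were -0.21 (Pomc, and 0.01 by Drop-seq alone) to 0.85 (Pcsk1), and the lowest edgeR adjusted p was 0.919. Pcsk1 was 0.233 and 0.368 UMIs per 10000 in the 10X Genomics libraries (female, then male), 0.421 and 1.45 in Drop-seq replicate 1, and 0.735 and 0.886 in replicate 2. The male was the higher of each pair, and within Drop-seq the values of both sexes did not overlap. Here too the share of all genes with this pattern was not computed. In corticotropes Pomc (-0.25, and 0.01 by Drop-seq alone) and Cpe (0.11, and -0.08 with library totals) alone passed the filter, with edgeR adjusted p of 0.997.

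**Figure D5:**
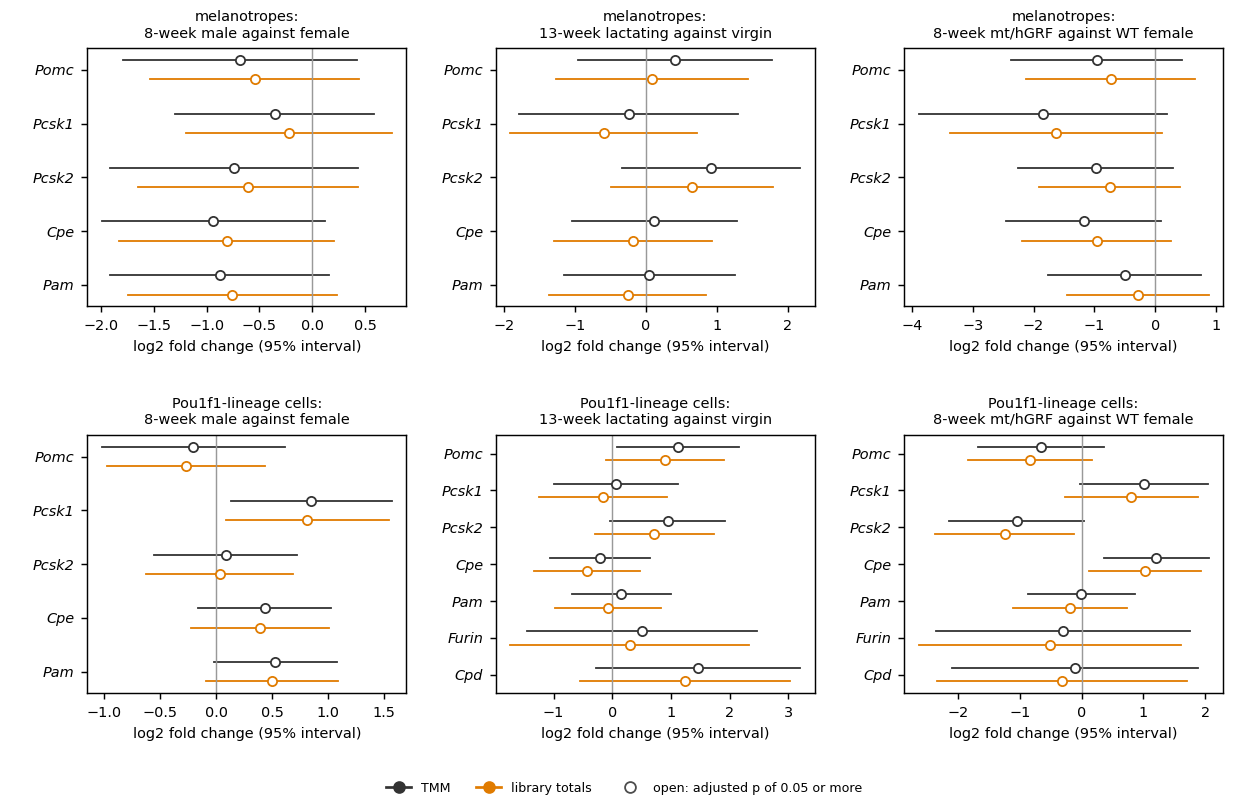
Log2 fold changes with 95% intervals for the members tested in melanotropes (top) and Pou1f1-lineage cells (bottom) by sex, lactation and the mt/hGRF transgene, by TMM (black) and library totals (orange). All points are open because no edgeR adjusted p was below 0.05, and the lactation and transgene intervals assume that the single virgin and mt/hGRF libraries vary like the other Drop-seq groups.

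Lactation was compared as 2 lactating libraries against 1 virgin library. Pomc in melanotropes was 956 and 1885 UMIs per 10000 in the lactating libraries, on either side of 1335 in the virgin. Pcsk2 was 20.4 and 20.6, both above 13.0 in the virgin library, with a log2 difference of 0.92 (SE 0.62, 95% interval -0.34 to 2.18, edgeR adjusted p = 1). In Pou1f1-lineage cells Pomc was 125 and 185 against 83.4 (1.12, SE 0.51, edgeR adjusted p = 1) and Pcsk2 0.951 and 1.49 against 0.748 (0.95, SE 0.48, edgeR adjusted p = 1, and -0.33 with free RNA subtracted). In corticotropes Pomc was 452 and 1526 against 623.

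The mt/hGRF library was compared with 2 8-week WT female Drop-seq libraries. All 5 members tested in melanotropes were lower in mt/hGRF, by -0.50 (Pam) to -1.85 (Pcsk1), with edgeR adjusted p of 0.932 to 0.947. Without 8-week female replicate 2 the differences of Pomc (-0.17), Pcsk2 (-0.14) and Pam (0.04) were smaller, and that of Pam changed sign. Pcsk1 in melanotropes was 0.531 UMIs per 10000 against 1.64 and 1.68, from 4 UMIs in the mt/hGRF library. Pcsk2 was 14.0 against 15.6 and 30.9, and Pomc 1192 against 1364 and 2599. In Pou1f1-lineage cells Cpe was 4.08 in mt/hGRF against 2.11 and 1.92 (log2 difference 1.21, SE 0.42, edgeR adjusted p = 0.292). It passed the threshold under strict gates of at least 2 Pou1f1 UMIs (1.89, edgeR adjusted p = 0.0191).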

How the data were processed

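The deposited tables hold raw counts of UMIs per gene symbol and barcode, with no normalization by the authors. Per the submitters' processing notes and the study's methods, Drop-seq reads were aligned to mm10 with STAR 2.5.2a and counted on exons, and 10X Genomics counts came from Cell Ranger, whose version is not given in the sources used here. The members, gates and gene lists were chosen with earlier results of these data known.

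Cells were kept with a mitochondrial share below 0.1 and, by Drop-seq, 100 to 4000 genes and at least 300 UMIs, or, on 10X Genomics, over 200 and under 3000 genes. Doublets were treated only by setting aside cells that passed more than 1 gate. UMIs were summed per library and class (at least 10 cells) and tested two-sided with edgeR 4.0.16 in R 4.3.3 (quasi-likelihood, TMM, filterByExpr, Benjamini-Hochberg, threshold 0.05). Class comparisons had the library as a block and the sex comparisons the platform as a covariate, and lactation and the transgene were contrasts over all 8 Drop-seq libraries. Alternatives were DESeq2 1.42.0, RLE size factors, no filter, other gates, subtraction of free RNA and left-out libraries. Library totals without TMM were added after seeing the data.

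On simulated data with 4-fold changes in 200 genes, 72.0% were recovered for melanotropes against corticotropes (1339 genes), 75.5% for sex (3044 genes) and 25.0% for lactation (4529 genes) in melanotropes. The draws gave all genes the same spread beyond counting error, and all libraries the same expected profile apart from the changed genes. These rates therefore need not hold for the real sums. Named list genes were the called ones of largest change between melanotropes and corticotropes, up to 10, and like genes the 3 of highest r per member; 1 gene that met these rules is not reported here. Intervals of shares and the limits from a count of 0 (3 counts) cover counting error only, and p-values measure the spread between libraries.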

Additional observations from a re-analysis of the deposited data

Results flagged for a closer look

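In 8-week mice, 3 members moved in opposite directions by sex in different classes in every pair of a female and a male library of the same platform and replicate number. The mean log2 ratio of male over female for Pcsk1 was -0.21 in melanotropes, 0.91 in Pou1f1-lineage cells and 0.59 in gonadotropes. For Cpe it was -0.79 in melanotropes and 0.41 in Pou1f1-lineage cells. For Pam it was -0.79 in melanotropes, 0.51 in Pou1f1-lineage cells and 0.48 in gonadotropes. The Pcsk1 value in melanotropes rests on few UMIs, such as 7 and 4 in the female and male 10X Genomics libraries. The difference between melanotropes and Pou1f1-lineage cells was fitted as an interaction with sex in edgeR and did not pass for Pcsk1 (-1.09, SE 0.54, adjusted p = 0.718), Cpe (-1.30, SE 0.47, adjusted p = 0.402) or Pam (-1.41, SE 0.44, adjusted p = 0.259). The contrasts with gonadotropes were not tested. These members were picked by their uniform sign over the pairs, and the share of all genes meeting that rule was not computed. Pou1f1-lineage cells pool somatotropes and lactotropes, whose relative numbers the study reports to differ by sex. Whether this contributes to the values was not tested.

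RNA of all 7 genes was also present in 10X Genomics barcodes of at most 100 UMIs, which entered no comparison, and levels are given per 10000 UMIs for the female library first. Pomc made up 1304 and 482 UMIs, where gated corticotropes had 597 and 383. Pcsk2 made up 9.41 and 3.36, where gated corticotropes had 2.32 and 6.85. Pcsk1 made up 0.445 and 0.578, where gated melanotropes had 0.310 and 0.262 and corticotropes 0.930 and 0.893. Cpe made up 5.29 and 3.6, where gated melanotropes had 4.42 and 1.51 and corticotropes 6.97 and 7.74. Pam made up 2.24 and 2.33, where gated melanotropes had 4.29 and 2.03. Furin was at 0.105 and 0.112, and Cpd at 0.148 and 0.160.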

How the results depend on the processing

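Of 827 alternative values for the members' fold changes, 753 kept their direction and side of the threshold, 17 lost a call, 9 gained one and 48 changed sign. Of the 48, 1 was called, Cpe in melanotropes against corticotropes, which was not called by TMM and was called at -0.82 with library totals, a scaling chosen after seeing the data. Counts of members changed stayed within 1.5 times in 170 of 171 cases, except by the mt/hGRF transgene in Pou1f1-lineage cells, where strict gates gave 1 (Cpe). The other condition fits had 0 members under the main setting and the alternative, so their agreement says little. The rule also ignores which members were called. With library totals in melanotropes against corticotropes, Cpe (lower) took the place of Pam (higher) at an unchanged count. Leaving out 1 library gave 3 members changed in melanotropes against corticotropes in each case, 3 to 5 against Pou1f1-lineage cells, 2 to 4 in corticotropes against Pou1f1-lineage cells and 0 in the condition fits. The Pcsk2 share difference lost its call by Drop-seq alone (59.3 points, 7 libraries) and, where the exact test cannot reach 0.05, under strict gates (78.5, 2 libraries) and with at least 20 cells (48.0, 5 libraries), and spanned 44.8 to 57.5 points without 1 library. Titles of the 8-week Drop-seq libraries share numbers across the sexes that the labels do not explain. As a replicate block, with the 10X Genomics pair as its own level, they changed no member's call, with 0 members changed by sex in each class, and 76 genes were called in Pou1f1-lineage cells in place of 16. Within Drop-seq, same-number libraries deviated from their group means with r of 0.423 in melanotropes and 0.392 in Pou1f1-lineage cells, 1 value for both pairs because with 2 numbers the deviations mirror each other. Of 84 shares of cells with a UMI, 16 stayed within 1 SD when cells were thinned or 2 UMIs were required. The other 68 moved by at least 1 SD or had an SD of 0, where an unchanged share was counted as moved. Strict gates left no fit by sex, lactation or transgene in corticotropes. The 185 corticotropes, with 38 Pcsk1 and 35 Pcsk2 UMIs, set the limit on the convertases.

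The other sign changes, all uncalled, were as follows, and their cause was not tested. With library totals they were -0.42 for Pcsk1 in melanotropes against corticotropes, 0.21 for Pam in corticotropes against Pou1f1-lineage cells, -0.08 for Cpe by sex in corticotropes, -0.18 for Cpe and -0.26 for Pam by lactation in melanotropes, and -0.16 for Pcsk1 and -0.07 for Pam by lactation in Pou1f1-lineage cells. Loose gates gave -0.01 for Cpe in melanotropes against corticotropes, -0.37 for Cpe by sex in corticotropes, -0.02 for Pcsk2 by sex in Pou1f1-lineage cells, and -0.17 for Cpe and -0.03 for Pam by lactation in melanotropes. Strict gates gave -0.28 for Cpe in melanotropes and 0.03 in Pou1f1-lineage cells by lactation. Cpe in melanotropes against corticotropes was -0.17 with at least 20 cells and -0.03 without Esm1 in the gate. By Drop-seq alone the sex difference of Pomc was 0.01 in corticotropes and 0.01 in Pou1f1-lineage cells, where that of Pcsk2 was -0.10. With free RNA subtracted, Pou1f1-lineage cells gave -0.33 for Pcsk2 by lactation and 0.04 for Pam by the transgene. Pam by the transgene there was 0.13 with no filter, where Cpd was 0.01, and 0.01 with Gh, Prl and Pomc left out of totals.

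Leaving out 1 library gave ranges that crossed 0. They were -0.06 to 0.27 for Cpe in melanotropes against corticotropes, and, by sex, -0.58 to 0.08 for Pomc in corticotropes and -0.89 to 0.10 for Pomc and -0.10 to 0.37 for Pcsk2 in Pou1f1-lineage cells. By lactation in melanotropes they were -0.41 to 0.93 for Pomc, -2.85 to 0.65 for Pcsk1, -0.53 to 0.57 for Cpe and -0.66 to 0.53 for Pam. By lactation in corticotropes they were -0.42 to 1.59 for Pomc, -0.97 to 0.12 for Cpe and -0.51 to 0.07 for Pam, and in Pou1f1-lineage cells -0.50 to 0.40 for Pcsk1, -0.57 to 0.03 for Cpe and -0.36 to 0.49 for Pam. By the transgene they were -0.83 to 0.04 for Pam in melanotropes, and -0.24 to 0.22 for Pam, -0.83 to 1.15 for Furin and -0.83 to 5.42 for Cpd in Pou1f1-lineage cells.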
